A study of Drosophila melanogaster with 2 samples.

Results

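The regions described here are the binding sites of the zinc finger protein Crooked legs (Crol) that lay between genes but close to one. They were chosen from the authors' conservative list of peaks on the autosomes by 2 criteria. The summit, the base of highest signal within a peak, lay in no annotated gene, with transposable elements set aside, and it stood more than 500 bp and at most 5000 bp from the nearest transcription start site (TSS) of any gene. Of 9211 peaks in the list, 7268 were autosomal, and 961 of these were near intergenic. That is 13.2% of autosomal peaks, with an exact (Clopper-Pearson) 95% interval of 12.5% to 14.0%. Intervals of this kind, here and elsewhere, cover the counting of peaks or genes only. By the same rule, the list of replicate 1 alone held 807 such peaks and that of replicate 2 alone 631. The rule used position alone, so signal and sequence were not part of the choice among the peaks of the list, all of which had passed the authors' threshold on agreement between the replicates.

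The peaks came from chromatin immunoprecipitation with sequencing (ChIP-seq) on whole *Drosophila melanogaster* embryos of 0-24 h. The transgenic flies of the crol-GFP strain expressed Crol joined to enhanced green fluorescent protein (crol-eGFP) from an insertion, and an anti-GFP antibody pulled down the sonicated chromatin, although another label names crol as the antibody. A single group with 2 biological replicates was sequenced, both from one fly strain, with no second genotype, stage or treatment, and a control experiment that the labels name was not analysed here. Signals from whole embryos average over all tissues and over the whole of embryogenesis, so a strong site in few cells and a weak site in many cannot be told apart. Read counts were not among the values used, so depth is unknown and limits on weak sites could not be set.

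Crol is a C2H2 zinc finger protein whose gene responds to the steroid hormone ecdysone and is named for its mutants' malformed legs. Zinc fingers of this class can contact DNA directly. DNA between genes in the fly holds many enhancers, stretches that raise or shape transcription from a promoter some distance away. An enhancer can skip the nearest promoter, so the nearest gene is used below only as the address of a peak. The GAGA element is a short repeat read by the Trithorax-like protein, which helps to keep regulatory DNA accessible, and by Pipsqueak.

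The sequence at the summits is shown first for the strongest members, and for those at the ends of the range of motif content. Each line gives the summit and the 50 bases to each side of it, on the + strand of dm6 as held in the RefSeq copy of the assembly. Capitals mark runs of 5 or more G or C, which are G runs on one strand or the other, and matches to GAGAG or its complement CTCTC. Sequence is printed from arms 2L, 3L and 3R, and the choice was made among members on those arms. The first 6 lines are the 6 strongest, the next 2 the strongest with neither motif, and the last 2 the strongest with at least 3 matches to GAGAG. Overlapping matches are counted separately, here and below.
CG31668, strongest: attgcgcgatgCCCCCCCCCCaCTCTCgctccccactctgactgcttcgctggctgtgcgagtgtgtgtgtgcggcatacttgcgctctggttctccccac
CG5953: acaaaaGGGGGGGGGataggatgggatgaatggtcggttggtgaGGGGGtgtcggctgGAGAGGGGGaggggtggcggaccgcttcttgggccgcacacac
dikar: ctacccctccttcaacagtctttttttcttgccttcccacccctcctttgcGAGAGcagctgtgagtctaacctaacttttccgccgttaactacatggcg
lncRNA:CR45393: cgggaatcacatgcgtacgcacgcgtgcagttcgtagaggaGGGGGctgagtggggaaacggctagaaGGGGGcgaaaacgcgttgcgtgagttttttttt
lncRNA:CR43822: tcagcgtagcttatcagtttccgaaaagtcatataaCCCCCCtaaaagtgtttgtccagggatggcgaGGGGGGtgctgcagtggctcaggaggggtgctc
lncRNA:CR45695: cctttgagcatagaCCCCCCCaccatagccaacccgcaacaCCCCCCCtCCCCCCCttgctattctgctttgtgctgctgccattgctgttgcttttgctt
foxo: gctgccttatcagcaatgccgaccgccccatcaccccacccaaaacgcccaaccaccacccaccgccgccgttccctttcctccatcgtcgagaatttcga
lncRNA:CR43801: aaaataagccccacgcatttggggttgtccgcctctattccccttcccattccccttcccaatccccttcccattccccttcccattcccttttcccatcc
CG13454: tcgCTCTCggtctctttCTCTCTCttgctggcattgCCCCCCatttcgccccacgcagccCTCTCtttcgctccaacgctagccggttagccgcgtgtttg
CG31668, many GAGAG: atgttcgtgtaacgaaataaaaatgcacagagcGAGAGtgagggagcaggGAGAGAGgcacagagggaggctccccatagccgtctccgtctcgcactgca

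The strongest of these sites, at chr2L:2203337-2203437, holds a run of 10 C with CTCTC just after it. The site of CG5953 at chr2L:16533450-16533550 has 3 separate G runs, and one of them overlaps GAGAG. The dikar site at chr3L:6743676-6743776 has no run of 5, and its capitals mark a single GAGAG. Both G runs of the site by lncRNA:CR45393, at chr3L:17949227-17949327, lie on the same strand. At lncRNA:CR43822, chr2L:3573248-3573348, one run is of C and the other of G. The lncRNA:CR45695 site, chr2L:1643549-1643649, has 3 runs of C, a pair of them 1 base apart. The foxo site, chr3R:14056173-14056273, and that of lncRNA:CR43801, chr2L:6075524-6075624, hold runs of 4 and none of 5. The CG13454 site, chr3L:15514536-15514636, and the weaker CG31668 site, chr2L:2202092-2202192, are rich in GAGA repeats.

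The near intergenic peaks were spread over the 4 large arms and were missing from chromosome 4. Members were 15.9% of the peaks on 3L (319 members), 11.2% on 3R (212) and 11.1% on 2R (205), and 15.01% on 2L, which held the rest. Counted per megabase of sequence that meets the rule, arm 3L had 91.3 members per Mb, 2R 71.5, 2L 62.5 and 3R 54.5. The order differed for all peaks per Mb of arm, with 73.3 on 2R, 71.9 on 3L, 63.7 on 2L and 59.1 on 3R. On chromosome 4, 0 of 8 peaks were near intergenic, which allows a share of up to 37.5%, where the limit set by a count of 0, here and below, is 3 counts of the total. Over all autosomes the eligible sequence came to 14.0 Mb and carried 68.8 members per Mb, beside 66.0 autosomal peaks per Mb of all sequence. Sequence of the same kind on X held 163 peaks, 68.2 per Mb.

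Other positions had other densities. Promoter sequence, within 500 bp of a TSS, had 133 summits per Mb, introns 79.9, intergenic sequence over 5000 bp from any TSS 29.2, and exons 17.96. Within the near intergenic range, density was 77.3 per Mb up to 1000 bp from the TSS (186 members), 74.8 from there to 2000 bp (290), 60.8 to 3000 bp (190), 62.1 to 4000 bp (156) and 67.7 to 5000 bp (139). Across these bins the density stayed within 60.8 to 77.3 per Mb. No test was made between classes, since all peaks come from the same pair of replicates. The members closest to the limits had signals on both sides of the median, which was 113.0. Just inside the limit of 500 bp, the peaks of tRNA:Pro-AGG-1-7, lncRNA:CR43150 and lncRNA:CR45744 had signals of 120.9, 76.2 and 76.0, and just outside it those of lncRNA:CR45434, lncRNA:CR45355 and Sox21b had 129.7, 143.3 and 143.7. Just inside 5000 bp, the 3 closest peaks had 279.7, 59.5 (lncRNA:CR44544) and 65.4 (lncRNA:CR45695), and the 3 just outside had 52.2, 108.1 and 56.9.

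**Figure D1:**
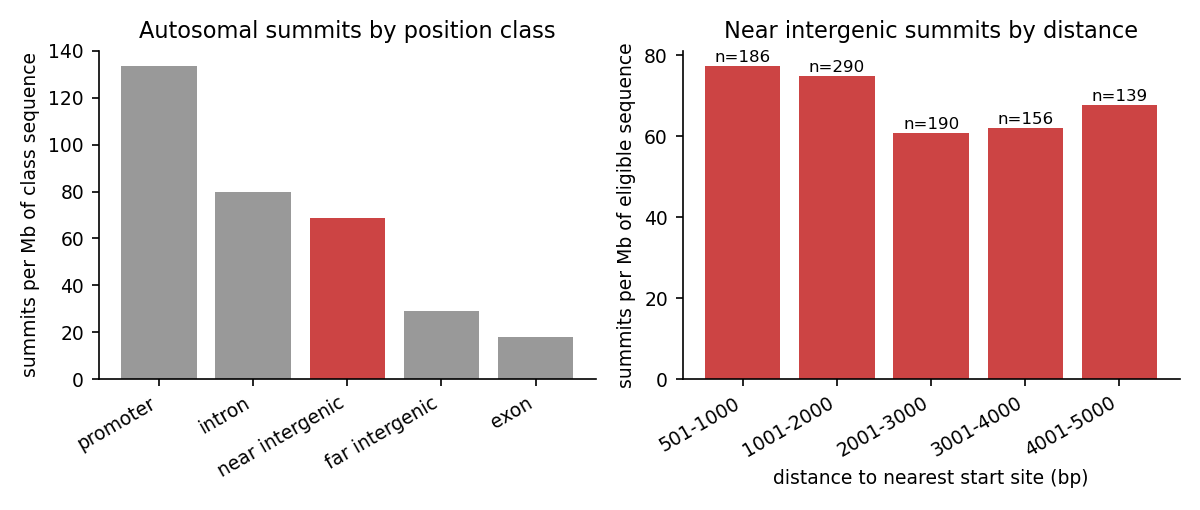
Left, autosomal summits per Mb of the sequence in each position class; right, near intergenic summits per Mb of eligible sequence by distance to the nearest TSS, with the number of members over each bar. Near intergenic sequence, in red, carried 68.8 summits per Mb, between introns and far intergenic sequence, and its density stayed between 60.8 and 77.3 over the distance range.

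Most members lay on the upstream side of their nearest gene. Of 961, 675 (70.2%, interval 67.2% to 73.1%) were upstream of it and 286 were past its end, while 64.3% of eligible sequence is upstream. This gives 75.2 members per Mb upstream and 57.3 per Mb past the end. Gaps between 2 genes that point away from each other held 309 members at 82.5 per Mb, gaps between genes in the same direction 494 at 67.1 per Mb, and gaps between genes that point towards each other 158 at 55.9 per Mb. The upstream share was 85.5% in the bin nearest to the TSS, 59.6% from 3001 to 4000 bp and 65.5% in the farthest. The upstream share of eligible sequence was not counted by bin, so the part of the distance rule in these values was not tested. Median signal was 116.9 upstream and 105.7 past the end.

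The nearest gene coded for protein at 583 members and for a long or other non-coding RNA (ncRNA) at 356. It was a tRNA at 17, a pseudogene at 4 and a snoRNA at 1. Per megabase of sequence nearest to each kind of gene there were 62.6 members by coding genes, 86.3 by ncRNA genes and 84.3 by tRNA genes. Counting coding genes only, 707 members (73.6%) had a coding TSS within 5000 bp.

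Signal, the value that the authors give each peak, ranged from 2.23 to 2274 over the members, with a median of 113.0 and quartiles of 80.1 and 184.8. Its scale is not stated in the files, so it is compared within one list only. The median was 113.1 over all autosomal peaks, 127.3 at promoters, 111.2 in introns and 97.4 in far intergenic sequence. By distance from the TSS the medians were 127.0 up to 1000 bp, 117.2 to 2000 bp, 97.4 to 3000 bp, 112.6 to 4000 bp and 105.2 to 5000 bp. The quartiles of those bins overlap widely. Of the 500 strongest autosomal peaks 63 (12.6%) were members, close to the 13.2% of all. All 29 members with signal under 30 overlapped another peak of the list, and no member that had no other peak within 1000 bp was under 33.8. The limit of 30 was chosen after the values were seen.

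Each replicate was also ranked on its own by the authors, and 952 members had a peak in the ranked lists of both. Median signal was 63.4 over the 956 members ranked in replicate 1 and 52.3 over the 957 ranked in replicate 2. Over all autosomal peaks the median log2 ratio of replicate 2 to replicate 1 was -0.28. After this shift was taken out, 914 members (96.0%) were within 2-fold between the replicates, as were 96.5% of all autosomal peaks. Across the 952 members, Pearson's r between the replicates' log2 signals was 0.88 and Spearman's rho was 0.79, as a description of peaks that share the same 2 libraries. The list had kept only peaks that passed the threshold on agreement between these replicates. Close values were therefore favoured by that choice, and they do not measure how well peaks repeat in general. Each replicate also has its own thresholded list. That of replicate 1 held a peak over 719 members (74.8%) and that of replicate 2 over 593 (61.7%). Both lists did at 537 members (55.9%, interval 52.7% to 59.1%), against 57.1% of all autosomal peaks, so members were called about as often as the rest. A further 182 were called in replicate 1 and not 2, 56 in replicate 2 and not 1, and 186 in neither, although the joint list holds them. Median joint signal was 171.8 for members called in both and 67.7 for those called in neither.

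**Figure D2:**
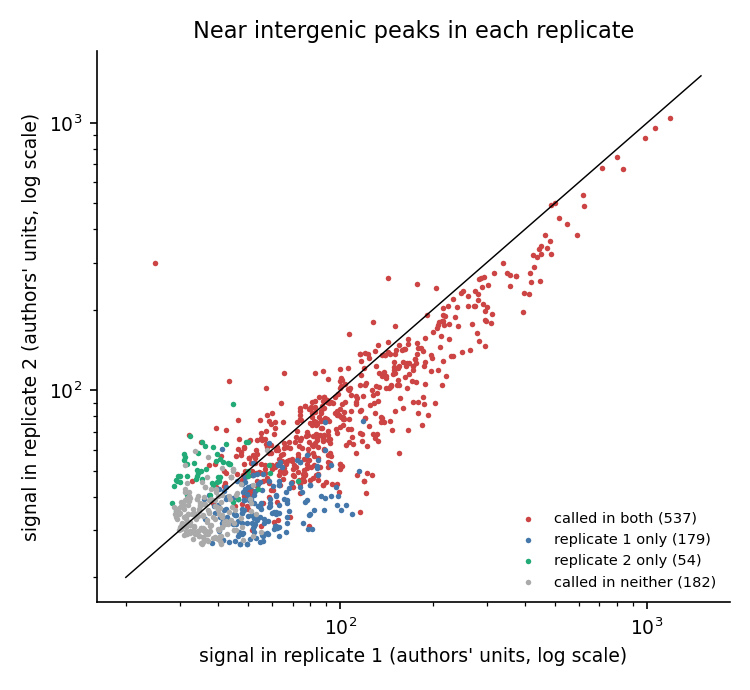
Signal of the 952 near intergenic peaks that had a ranked peak in both replicates, on log axes in the authors' units, coloured by the replicates whose own list called the peak; the line marks equal signal. Most points lie along the line or just below it, and the 1 point far above it is the second summit at CG3961 (24.8 in replicate 1 and 300.6 in replicate 2).

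The members at the ends of the ratio between replicates had joint signals between 50.3 and 161.4. Relative to the median shift, the peak of lncRNA:CR45393 at 3L:17950303-17950712 had a log2 ratio of replicate 2 to replicate 1 of -1.44 (116.1 in replicate 1 and 35.2 in replicate 2). Thor, which encodes the translation inhibitor 4E-BP, had a peak with 109.2 and 34.6, a ratio of -1.38. The peaks of lncRNA:CR45038, Lamtor2 and lncRNA:CR45641 had log2 ratios of -1.28, -1.21 and -1.21. In the other direction, CG3961 had 3.88, dally 1.60, Glut4EF 1.36, CG18249 1.34 and lncRNA:CR45407 1.27. At the first 3 of those, and in replicate 1 at the first lncRNA:CR45393 peak above, the replicate had 1 peak to match with more than 1 summit of the joint list. At CG3961 the joint list gives 2 summits in one interval, with signals of 643.8 and 50.3, replicate 1 had 339.7 and 24.8 there, and replicate 2 had only 1 summit, at 300.6. In all, 74 members shared their replicate 1 peak and 86 their replicate 2 peak with another peak of the list.

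The strongest member lay between lncRNA:CR44761 and Ppa, in a gap of 11259 bp on 2R, with a joint signal of 2274 and replicate signals of 1190 and 1043. Only 3 autosomal peaks were stronger. The second, past the end of CG31668, had 2012 (1064 and 954), and the third, 623 bp upstream of CG5953, had 1793 (983 and 876). Then came CG33798 with 1569, lncRNA:CR44366 with 1522, dikar with 1390, lncRNA:CR45393 with 1172, CG13204 with 1111 and lncRNA:CR43822 with 1095. These 9 members alone were above 1000, and each was called in both replicates.

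Several genes with known parts in development stand next to the strongest members. The engrailed gene en, whose homeodomain product marks the posterior compartment of each segment, had a peak of 987.2 (501.3 and 500.6) 1471 bp upstream, in a gap of 49274 bp between en and tou. A peak of 944.5 stood in the gap between lncRNA:CR45737 and sty, the latter encoding Sprouty, which dampens EGF and FGF receptor signals. These 2 genes point towards each other, so the peak was past the end of sty. Its nearest coding TSS was that of Ids, 17043 bp away, so the TSS of sty was no closer. The gap between lncRNA:CR45393 and Eip75B, an ecdysone-induced nuclear receptor gene, held the peak of 1172 described above. That peak was past the end of Eip75B and 12537 bp from its nearest TSS. A peak of 854.3 stood 4331 bp upstream of sens-2, a zinc finger gene, and one of 806.1 stood 722 bp upstream of foxo, the transcription factor held in check by insulin signalling. The gene ds encodes the giant cadherin Dachsous, which signals through Fat, and had 775.5 (450.9 and 322.3) 687 bp upstream. Between lncRNA:CR45039 and the Notch target E(spl)malpha-BFM there was a peak of 729.4 (429.0 and 289.0). The limb patterning gene bab1 had 715.1 (415.8 and 275.0) 1574 bp upstream, in the 39339 bp that separate it from its paralog bab2. Replicate 1 was above replicate 2 at each site whose replicate values are given here, as over the list as a whole.

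The rest of the 25 strongest were the peaks of lncRNA:CR45695 with 998.9, CG30371 with 970.7, CG33453 with 849.5, lncRNA:CR45564 with 799.7, lncRNA:CR43801 with 786.7, MESR6 with 752.0 and tRNA:Tyr-GTA-1-3 with 750.1. The gustatory receptor gene Gr93a had 817.1 (471.8 and 342.1), and 3 further members were nearest to it. The last of the 25 was a second summit in the interval of the strongest member, with 694.0 (393.9 and 195.7).

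Many members shared a gap with others, and other peaks stood close to members about as often as to autosomal peaks in general. The 961 members fell into 606 gaps between genes, and 398 of the gaps held 1 member. The remaining 208 gaps held 563 members between them, and the part of gap length in this was not tested. The nearest other peak of any class was a median of 1705 bp away, beside 1691 bp over all autosomal peaks, and 328 members (34.1%) had one within 1000 bp, beside 35.3%. The most in one gap was 7, between lncRNA:CR45292 and lncRNA:CR44184 on 2L, none above 221.4 in signal. Gaps with 6 lay between lncRNA:CR45641 and lncRNA:CR45643 on 3R (highest 433.3) and between fj, the gene of a Golgi kinase that acts on Fat and Dachsous, and lncRNA:CR44420 on 2R (highest 131.3). Counted by nearest gene, lncRNA:CR45737 had 7 members, with signals of 944.5, 585.6, 207.2, 106.4, 89.4, 72.4 and 64.7 along 3L:3389031-3398001. CG43245 had 6, the highest 467.2 and the lowest 4.004. Another 9 genes had 5, of which Tollo, which encodes a Toll family receptor, had signals of 554.3, 113.0, 86.1, 85.0 and 3.86 along 3L:15230945-15234808. Of the 5 at lncRNA:CR44761, 3 besides those already given had 465.4, 211.1 and 85.5. Those at lncRNA:CR45695, which lies beside chinmo, a gene that sets neuron identity over time, had 998.9, 473.1, 142.0, 119.6 and 65.4. The 5 at lncRNA:CR42755, CG43131, lncRNA:CR45251, lncRNA:CR45052, lncRNA:CR44565 and lncRNA:CR44420 were weaker, with highest signals of 275.7, 219.0, 173.4, 152.6, 186.1 and 94.0. The 4 at lncRNA:CR45393 had 1172, 205.2, 171.5 and 154.8. These counts include weak second summits with the same replicate signals as a neighbouring member. They were the members of 4.004 at CG43245, 3.86 at Tollo, 12.6 at lncRNA:CR44565 and 2.23 at lncRNA:CR44420. Eligible sequence nearest to the genes counted here ran from 3829 bp at lncRNA:CR45393 to 9000 bp at CG43131.

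The G run was the sequence feature seen at most summits. Of 961 members, 566 (58.9%, interval 55.7% to 62.0%) had GGGGG on either strand within 50 bp of the summit. In flanks of the same total length, about 200 to 250 bp to each side, 14.7% had one, and so did 8.92% of 138385 windows of the same length laid over all eligible sequence. The flanks are in 2 pieces and hold 93 start positions for a 5-base match where the summit window holds 97. Summits in introns had it at 56.7%, far intergenic summits at 54.7% and promoter summits at 38.1%, with flank shares of 14.3%, 12.1% and 9.09%. The match was close to the summit. In bins of 20 bp it was found in 22.2% of members from 20 to 1 bp before the summit, in 22.4% from 0 to 19 bp after it, in 9.36% from 60 to 41 bp before it and in 4.37% from 100 to 81 bp before it. Runs lay on the strand of the nearest gene at 262 members and on the other strand at 272, with both at 32.

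**Figure D3:**
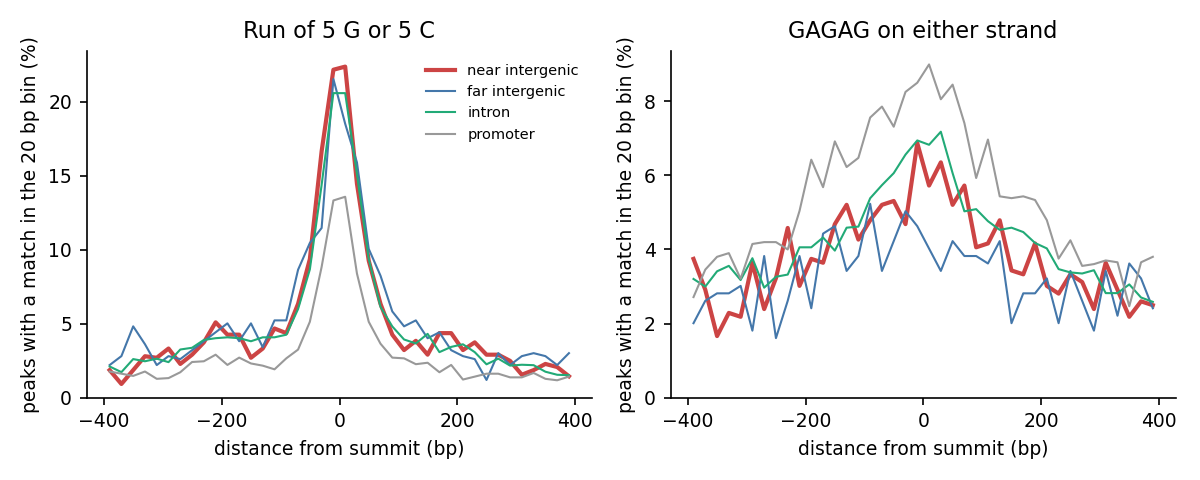
Share of peaks with a match in each 20 bp bin, by distance from the summit, for runs of 5 G (left) and GAGAG (right), in near intergenic, far intergenic, intron and promoter peaks; the vertical scales differ. The G run share of near intergenic peaks rises to 22.4% at the summit from 1.87% in the bin 400 to 381 bp before it, while GAGAG rises to 6.87% over a broader stretch.

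Runs longer than 5 were also found. The longest run had exactly 5 bases at 237 members (24.7%, against 6.47% of windows), 6 at 169 (17.6%, against 1.66%) and 7 at 55 (5.72%, against 0.369%). It had 8 or more at 105 members (10.9%), against 0.412% of windows. Median signal was 113.0 for a longest run of 5, 142.0 for 6, 141.1 for 7 and 128.6 for 8 or more. Members without a run of 5 often had one of 4, as at foxo above. Of 395 such members, 237 (60%) had GGGG, in their flanks 37.0% had, and so did 21.9% of the windows with no run of 5. Their median signal was 114.8, and it was 88.5 for those with no run of 4, a comparison chosen after the sequences were seen.

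Base composition moved with the G runs. Median GC content was 54.5% at summits, 42.6% in flanks and 40.6% over windows. Among members with GC of 50% to under 60%, 63.7% of 480 had a G run, and among eligible windows in the same range 20.8% of 21651 did. From 40% to under 50% GC the shares were 45.9% of 233 members and 10.4% of windows, from 60% to under 70% they were 74.7% of 186 members and 38.0% of windows, and from 30% to under 40% they were 8.57% of 35 members and 3.88% of windows. Members had the larger share in each of these ranges, and no test was made.

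Median signal was higher with more G runs in both replicates. With 0 runs (395 members) median joint signal was 95.6, with 1 run (351) 115.6, with 2 runs (160) 137.4 and with 3 or more (55) 184.8. In replicate 1 the medians were 56.2, 65.7, 78.5 and 98.8, and in replicate 2 they were 45.7, 53.3, 64.3 and 85.0. The quartiles overlapped, from 71.9 to 152.3 with 0 runs and from 93.5 to 323.7 with 3 or more. Over all autosomal peaks the joint medians were 99.1, 122.3, 139.1 and 169.6. Median GC content also went from 51.5% with 0 runs to 60.4% with 3 or more, and its part in the signal was not tested. Within the range of 50% to under 60% GC, median signal was 113.7 with a run and 98.2 without, and within 60% to under 70% it was 166.6 and 128.6. Of the 100 strongest members 74% had a G run, and of the 100 weakest 38%.

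**Figure D4:**
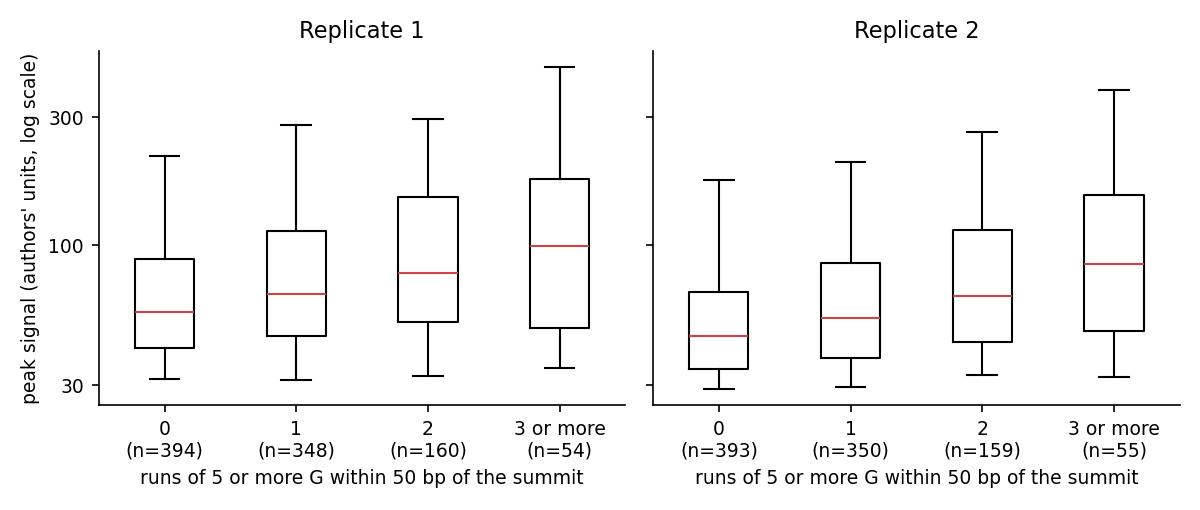
Signal of near intergenic peaks in replicate 1 (left) and replicate 2 (right), on a log axis in the authors' units, by the number of separate G runs within 50 bp of the summit; boxes span the quartiles, red lines are medians and whiskers reach the 5th and 95th percentiles. Medians go from 56.2 to 98.8 in replicate 1 and from 45.7 to 85.0 in replicate 2, with wide overlap of the boxes.

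GAGAG was present at 207 member summits (21.5%, interval 19.0% to 24.3%), in the flanks of 13.7% and in 10.4% of windows. Its share was 29.1% at promoter summits, 25.3% in introns and 17.1% in far intergenic peaks. Its distribution was broad, from 6.87% in the bin just before the summit to 4.79% in the bin from 100 to 81 bp before it. Among the most repetitive members, hid had 11 matches at its strongest peak and zfh1 had 8, with overlapping matches counted separately. Median signal was 138.6 with GAGAG and 107.8 without it, and in the replicates 80.2 and 61.0, then 61.9 and 50.1. The 114 members with both motifs had a median of 162.1, the 452 with a G run alone 117.8, the 93 with GAGAG alone 106.4 and the 302 with neither 91.0. Over all autosomal peaks these medians were 165.6, 120.9, 120.3 and 93.7.

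Of 1275 6-base sequences (reverse complements joined) found at 3% or more of member summits, 379 (29.7%) were at least 1.5 times as frequent there as in flanks. A sequence had to be frequent at summits to be counted, which favours high ratios. When sequences were admitted by the mean of their summit and flank shares instead, a count made after the data were seen, 295 of 1320 (22.4%) were at least 1.5 times as frequent at summits and 283 (21.4%) at least 1.5 times as frequent in flanks, with a median ratio of 1.02. The 10 highest ratios at summits all belonged to G-rich sequences. CGGGGG was at 15.9% of summits and 2.39% of flanks, a ratio of 6.65, and GGGGGG at 34.2% and 5.20%, a ratio of 6.58. GGCGGG followed with a ratio of 6.42, AGGGGG with 5.93, GGGGTG with 5.83, GGGAGG with 5.81, GGGGGT with 5.77, GAGGGG with 5.64, GGAGGG with 5.52 and GCGGGG with 5.19. These overlap one another and are not separate features. In far intergenic, intron and promoter peaks their ratios ran from 3.395 (GGCGGG at promoters) to 13.08 (GGGGGG in far intergenic peaks).

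The other short elements searched, all on both strands, were either near their flank share or below it, with 2 exceptions. GGTGTG, the core of T-box sites, was at 8.95% of summits and 4.37% of flanks, and GGCGNC, the Brinker site, at 17.9% and 11.3%. Both are rich in G or C, and GGTGTG can overlap a G run. Neither excess was particular to members. The ratio of summit to flank share for GGTGTG was 2.05 in members, 1.94 in far intergenic peaks, 2.195 in introns and 1.65 at promoters. For GGCGNC the ratios were 1.58, 1.59, 1.65 and 1.37 in the same order. The A- and T-rich elements were rarer at summits, with AAAAAA at 11.8% against 22.3% and the homeodomain core TAATTA at 2.91% against 6.03%. TCGATA, part of the DRE element of housekeeping promoters, was at 1.46% against 2.71% (14 and 26 members), and GATAA at 13.8% against 17.0%. TGANTCA, the AP-1 site, was at 0.936% against 1.46%, only 9 and 14 members. Far intergenic peaks went the other way for it, with 9 at summits and 5 in flanks. The nuclear receptor half-site AGGTCA, which ecdysone receptors and their relatives read, was at 1.25% in both (12 members each). CAGGTAG, the Zelda site of early embryonic enhancers, was at 0.416% in both (4 members each). CACACA was at 12.6% against 10.9%, the E-box CANNTG at 38.9% against 36.1%, TGGGAA, read by Suppressor of Hairless, at 7.80% against 7.70% and GCCAT, the core of the Pleiohomeotic site, at 21.1% against 19.8%. In the eligible windows, the shares were 3.48% for GGTGTG, 9.55% for GGCGNC, 20.1% for AAAAAA, 8.24% for TAATTA and 3.19% for TCGATA. They were 18.5% for GATAA, 1.89% for TGANTCA, 2.28% for AGGTCA, 0.418% for CAGGTAG, 8.87% for CACACA, 40.4% for CANNTG, 6.64% for TGGGAA and 20.9% for GCCAT.

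Some of the genes nearest to members had a promoter peak as well. At 274 members (28.5%, interval 25.7% to 31.5%) the nearest gene had a peak summit within 500 bp of one of its TSSs. The share was 28.2% for far intergenic peaks, 44.4% for intron peaks and 56.4% over all autosomal peaks, which include the promoter peaks themselves. Those members had a median signal of 128.3 (78.7 in replicate 1 and 64.0 in replicate 2), and the other 687 had 106.1 (60.7 and 49.7). Of the 427 coding genes nearest to a member, 135 (31.6%, interval 27.2% to 36.3%) had a promoter peak, while 15% of all 11749 autosomal coding genes had one. Among the 4562 other coding genes that are nearest to some eligible sequence, 11.6% had one. Genes share promoters with their neighbours, and the part of gap length in this was not tested.

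In all, 427 protein-coding genes were nearest to at least 1 member, which is 3.63% of the 11749 on the autosomes. Of these 317 had 1 member, 80 had 2 and 30 had more. A coding gene is left out where a non-coding gene has the nearer TSS. With only coding genes in the rule, 837 peaks met it and 556 coding genes were nearest to one. Lists of genes were set beside the share of 3.63%, and the lists were picked with earlier results on these peaks known. A gene in a compact region has no sequence that meets the rule, so lists differ in how many members they could have, and the density per Mb of eligible sequence (62.6 over all coding genes) is given as well. By density the lists took another order than by share of genes. The highest were JAK-STAT and Hippo with 333.9 members per Mb, Hedgehog with 292.6, cell cycle with 273.5, Wingless with 241.4, Notch with 216.4 and cell death with 205.0, and each of these had 2 to 9 members in all.

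Transcription factors that specify organs had members at 23 of 70 genes (32.9%, interval 22.1% to 45.1%), and segmentation genes at 10 of 32 (31.3%, interval 16.1% to 50%). Those lists had 151.5 and 103.7 members per Mb, and their median eligible sequence per gene was 3.57 and 4.50 kb, where most coding genes had none. Of the organ genes, bab1 was given above. The paired-type gene toe had 474.4 (295.6 and 183.2) 2036 bp upstream in the gap it shares with eyg. The Iroquois gene mirr had 3 members of 462.1, 253.4 and 80.7, all upstream, and salm, a zinc finger gene and target of Dpp signalling, had 441.2 (204.7 and 240.5) 605 bp upstream. Of the segmentation genes besides en, the pair-rule repressor hairy (listed as hry) had 492.1 (291.4 and 211.2) 2762 bp upstream. The fork head gene slp2 had 2 members of 401.1 and 171.8 between it and slp1, and the nuclear receptor gene knrl had 209.8. The Hox genes, which give segments their identity, had members at 0 of 11, which allows up to 27.3%, with a median of 1.37 kb of eligible sequence. This counts only genes whose own TSS was the nearest, and members can lie farther from a Hox gene. A member of 213.4 (115.7 and 105.2) nearest to lncRNA:CR45899 had Antp as its nearest coding gene, 5546 bp away.

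**Figure D5:**
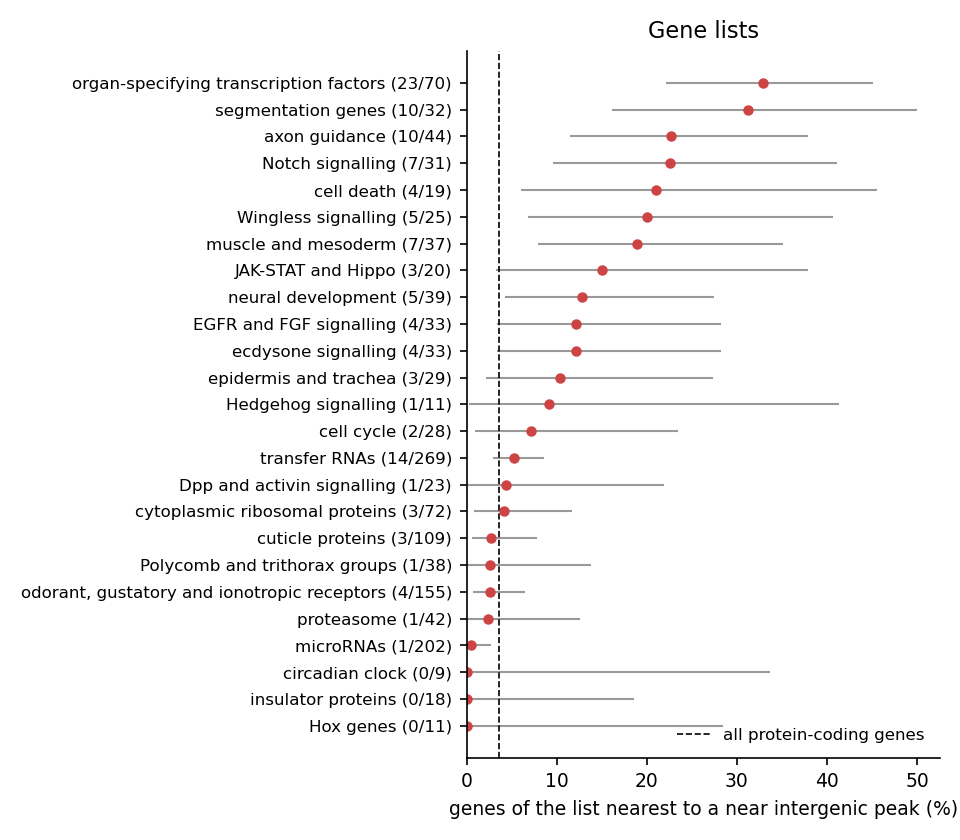
Share of the autosomal genes of each list that were nearest to at least 1 near intergenic peak, with exact 95% binomial intervals over genes; the dashed line is the 3.63% of all protein-coding genes, and the numbers are genes with a member over genes in the list. Organ-specifying transcription factors (23/70) and segmentation genes (10/32) have the largest shares, with the Hox, insulator and clock lists at 0.

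Signalling pathways had members at 1 to 7 genes each. For Notch the count was 7 of 31 (22.6%) and besides hairy it took in E(spl)malpha-BFM (173.9), E(spl)m5-HLH (162.9) and the secreted sca (154.0). Wingless signalling had 5 of 25 (20%), with the receptor gene fz at 305.5 (172.3 and 123.5), the glypican gene dally at 219.9, the feedback inhibitor nkd at 166.7 and the ligand gene Wnt6 at 79.8. Of the JAK-STAT and Hippo list 3 of 20 genes had one, all from the Hippo side, namely ds, ex at 261.0 and fj at 131.3. In the EGFR and FGF list it was 4 of 33 at 83.4 per Mb, with the phosphatase gene Mkp3 at 282.9 (192.8 and 80.9), RasGAP1 at 213.7, the ETS repressor gene aop at 147.8 and edl at 86.6. The Hedgehog receptor gene ptc was the 1 of 11 in its pathway, with 3 members of 274.4, 226.7 and 91.4 upstream. For Dpp and activin it was 1 of 23 (4.35%), salm, at 59.2 members per Mb. That count leaves out a member of 329.0 (177.9 and 149.9) whose nearest TSS was that of lncRNA:CR44912. Its nearest coding gene was dpp, and it lay 1351 bp upstream of dpp. Ecdysone signalling, to which crol itself responds, had 4 of 33 (12.1%, interval 3.403% to 28.2%) at 109.6 per Mb. They were the nuclear receptor gene Eip78C at 199.7 (108.8 and 83.7), the transporter gene E23 at 170.2, Kr-h1, a zinc finger gene of the juvenile hormone response, at 96.1, and shd, whose enzyme makes 20-hydroxyecdysone, at 88.3.

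Among tissue lists, axon guidance had 10 of 44 genes (22.7%) at 117.2 members per Mb, with Toll-7 at 380.3 (206.5 and 171.6), comm2 at 203.2, beat-IIIc at 122.7 and trn at 115.7. Muscle and mesoderm had 7 of 37 at 108.3 per Mb, with the GATA factor gene srp at 399.6 (227.1 and 177.4), bin at 145.6, zfh1 at 138.6 and the actin gene Act57B at 121.2. Neural development had 5 of 39 at 72.9 per Mb, with chinmo at 369.8, pdm2 at 190.3 and scrt at 140.6 beside slp2. In the epidermis and trachea list it was 3 of 29 at 64.6 per Mb, where the BTB factor gene rib had 640.4 (375.2 and 267.3) 3923 bp upstream and verm, a chitin deacetylase gene of the trachea, had 229.7. Cell death had 4 of 19 (21.1%). The 2 IAP antagonist genes in it were hid, with 3 members of 179.3, 127.9 and 69.2 upstream, and rpr, with 173.6 (98.2 and 80.6), and the others were egr at 90.5 and kay at 70.03. Cell cycle genes had 2 of 28, CycB at 288.1 past its end and the CDK inhibitor gene dap at 98.7.

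The remaining lists had members at a smaller share of their genes, as did the Dpp and activin and the Hox lists above. Cytoplasmic ribosomal proteins had 3 of 72 (4.17%) at 81.3 members per Mb, at RpS23 (132.4), RpLP0 (132.1) and RpS26 (104.5), and the proteasome had 1 of 42 at 48.7 per Mb, Prosalpha5 (104.5). Chemoreceptor genes (odorant, gustatory and ionotropic) had 4 of 155 (2.58%) at 31.4 members per Mb, and besides Gr93a they were Gr93b (258.9), Gr93d (137.2) and Or45b (82.6). Cuticle proteins had 3 of 109 (2.75%) at 38.1 per Mb, at Cpr51A (274.4), Cpr76Ba (162.3) and TwdlQ (70.1). Of the Polycomb and trithorax groups 1 of 38 had members, 3 in 0.0199 Mb of eligible sequence, which is about the density of the organ-specifying list. The gene was psq, which encodes the GAGA-binding protein Pipsqueak, with 525.9 (290.6 and 243.4), 303.3 and 231.9 upstream. Its strongest peak held 6 GAGAG matches, with overlapping ones counted separately, and a G run. Insulator protein genes had 0 of 18 (up to 16.7% is allowed), and they have next to no eligible sequence. Clock genes had 0 of 9 (up to 33.3%), with only 0.00736 Mb of eligible sequence. MicroRNA genes had 1 of 202, mir-280 (109.3), at 26.6 members per Mb in 0.0375 Mb of eligible sequence. For tRNA genes it was 14 of 269 (5.20%) at 84.3 per Mb. They included tRNA:Lys-CTT-1-11 at 301.4, tRNA:Gly-GCC-1-4 at 264.0 and tRNA:Phe-GAA-1-7 at 181.3 after tRNA:Tyr-GTA-1-3.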

How the data were processed

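ChIP-seq of crol-eGFP embryos (1 group, 2 biological replicates) was analysed from peak lists on dm6. The authors ranked and thresholded peaks by IDR, a measure of how well peak order repeats, per the file notes. The sources used here name no aligner or peak caller. The deposited signal of a peak is on an unstated scale, and the deposited score is a rescaled IDR, at least 830 in the conservative list. The deposited summit offset placed the summits.

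Genes came from Ensembl release 115 and sequence from RefSeq, both dm6. A replicate's signal is that of the overlapping peak (1 bp or more) with the nearest summit in its own ranked list. No test was made over peaks or genes. Functions were tested on simulated data. Python 3.11.15, numpy 2.4.6, pandas 2.3.3, scipy 1.17.1 and matplotlib 3.10.9 were used.

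Members and gene lists were chosen with earlier results of these data known. Of 659 listed names, 10 had no match. Named were the genes nearest to the 25 strongest members, up to 12 genes with 4 or more members, up to 4 genes per list, the 5 members at each end of the replicate ratio, 3 on each side of each distance limit, the 10 leading 6-mers, and the motifs. Alternatives were other lists, each replicate alone, and other gene sets, distances and windows.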

Additional observations from a re-analysis of the deposited data

Results flagged for a closer look

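The joint ranked list holds 16 near intergenic autosomal peaks that reach the lowest score of the conservative list and are not among its peaks analysed here, and they were used in no count above. The strongest stood 863 bp upstream of tara, a regulator of cell fate, with a signal of 1015, a level that only 9 of the 961 members passed. The next were by Rh5, a rhodopsin gene (965.1), and COX7AL2 (701.9). They lay at few places, with 5 nearest to Rh5, 3 to Hacd1 and 3 to COX7AL2, and they are among 180 such autosomal peaks of all classes. With 2 samples in the group, no test for an outlying sample was made.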

How the results depend on the processing

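No paired analysis was possible because the study has only 1 group. Of 89 values under alternatives, 66 stayed within 1.5 times (counts), the 95% interval (shares) or the relative SD of the replicates' medians, 13.6% (signal), and 23 did not. With the optimal list the share called in both replicates was 51.5%. Adding the peaks left out of the conservative list, and admitting 6-mers by their mean share, alternatives chosen after seeing the data, moved no result past those limits. With the stronger part of the list (signal at or above the autosomal median, which by construction removes weak members and promoter peaks) there were 480 members, median signal was 185.3, 91.3% were called in both replicates, 66.5% had a G run, 26.0% had GAGAG, 244 coding genes were nearest and 21.0% had a promoter peak at the nearest gene. Without one replicate, the number of members was 631 (without replicate 1) to 807 (without replicate 2), their share 13.06% to 13.07%, median signal 68.0 to 74.7 on the replicates' own scale, the G run share 57.6% to 61.5%, GAGAG 23.7% to 26.5%, coding genes 311 to 372, the promoter peak share 24.7% to 28.7% and 6-mers 380 to 429. With protein-coding genes only the share of autosomal peaks was 11.5%, with distances over 1000 bp 10.7% and with distances up to 3000 bp 9.16%. Within 25 bp of the summit 42.1% had a G run, 12.4% had GAGAG and 216 6-mers passed, and within 100 bp 71.2% and 35.6% had the motifs. A promoter window of 250 bp gave 23.4% and one of 1000 bp 51.5%. In the window of 1000 bp, the 186 members that close to a TSS count as promoter peaks of their own nearest gene. The value of 51.5% is raised by construction and does not count separate promoter peaks. Unknown depth leaves the limit on weak peaks unset.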
